A study of Mus musculus with 7 samples.

Results

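Oligodendrocytes, the myelin-making cells of the brain, arise from precursor cells that persist through adult life. Expression of 10 genes that mark this lineage was examined in mouse brain RNA: the precursor markers Pdgfra, Cspg4 and Lhfpl3, the lineage transcription factors Olig1, Olig2, Sox10 and Nkx2-2, and the genes Gpr17, Bcas1 and Enpp6 of newly formed oligodendrocytes. They were chosen by name, and each had 1 row among the 48526 genes of the deposited table. The libraries came from brains of mice aged 24 months that carry the constructs V1S and SV2, with the labels DT and Venus, in a study of α-synuclein oligomers detected by protein complementation. The on group has 4 libraries with the label glucose, and the off group has 3 libraries with the label Dox, taken here as doxycycline. Both groups carry the constructs, so no library lacks them, and an effect of the drug cannot be told apart from one of the constructs. The sources used here give neither the promoter behind the constructs, nor the brain region, nor whether libraries come from separate animals. The p-values therefore cover the spread among these libraries alone, which may be technical.

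Values are regularized logarithms (rlog), the authors' log2-scale values after scaling between libraries, which shrink the changes of genes with few reads. The depth of each library is unknown. A difference is on minus off in log2 units with its standard error (SE), from a limma fit over the 17896 genes with a mean rlog value of 3 or more, and a gene was called at a Benjamini-Hochberg adjusted p under 0.05 over all of them. All 10 lineage genes passed this filter. In brain RNA, fewer cells of a type and less RNA per cell cannot be told apart. Brain cell markers were present, with none of the neuron, astrocyte, microglia or myelin markers listed at 0 throughout. Mean rlog values over the neuron list were between 13.97 and 14.05 in on and between 14.05 and 14.11 in off. On the first principal component of all tested genes, the off libraries ran from -8.64 to -3.56, a range that held on replicate 1 at -4.10, whereas on replicates 2 to 4 ran from 7.19 to 9.15.

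Oligodendrocyte precursors divide in response to platelet-derived growth factor, which they bind through the receptor encoded by Pdgfra. Olig2 commits cells to the lineage, Olig1 acts in the later steps of maturation, and Sox10 and Nkx2-2 act with them to switch on myelin genes. Cells that have left the precursor state but do not yet make compact myelin pass through a short stage marked by Gpr17, Bcas1 and Enpp6. In the adult brain these intermediate cells are rare.

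Of the 10 genes, 2 were called, Olig1 and Olig2, both lower in on, where 2.6% of all tested genes were called in either direction, 1.79% lower and 0.816% higher. They were also the only 2 of the 10 whose on libraries all lay below the off libraries; groups did not overlap in 15.2% of all tested genes, with on below off in 8.09% and above in 7.13%. The other 8 genes had differences between -0.14 and 0.02 that did not pass. Over the 10 genes the median difference was -0.02, against 0.00 over all tested genes.

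**Figure D1:**
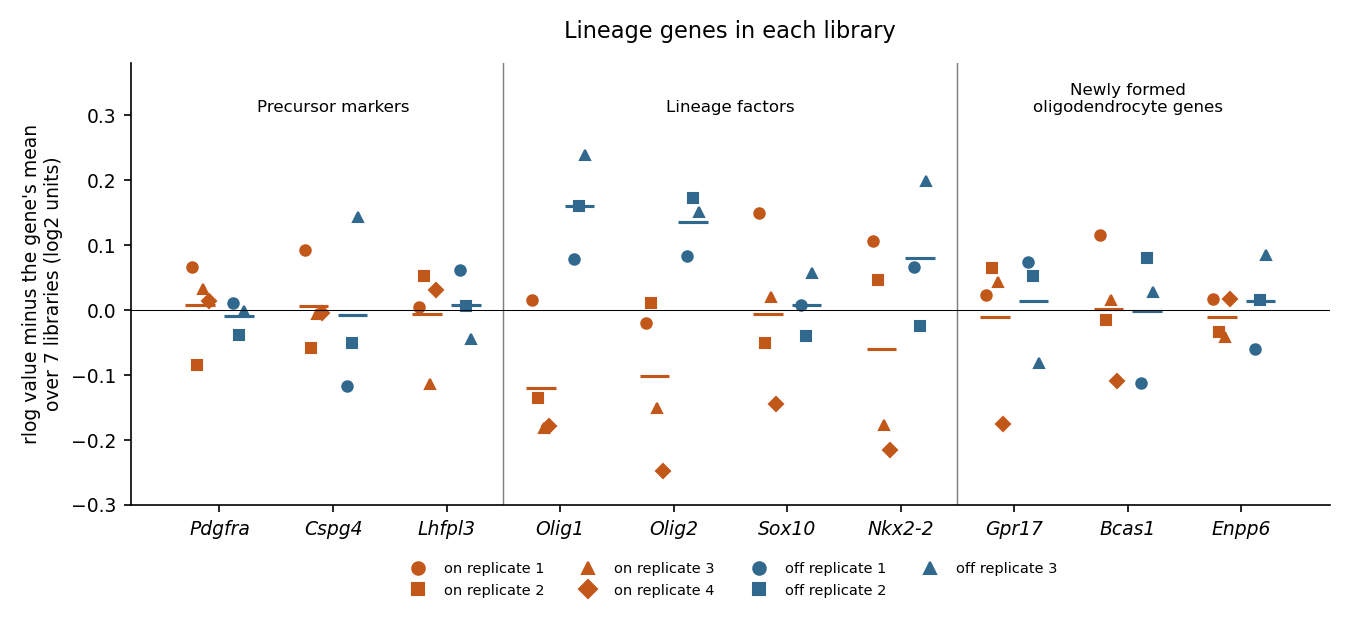
Deviation of each gene's rlog value from its mean over the 7 libraries (log2 units), with 1 symbol per library, on libraries left of off libraries, and lines at the group means. In Olig1 and Olig2 the 4 on libraries lie below the 3 off libraries, and in the other 8 genes the groups overlap.

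Olig1 encodes a basic helix-loop-helix factor and lies at chr16:91269772-91271933 on the plus strand of GRCm38, as a gene of 1 exon. Its rlog values were 11.86, 11.71, 11.66 and 11.67 in on replicates 1 to 4 and 11.92, 12.01 and 12.08 in off replicates 1 to 3. On replicate 1 lay nearest to the off libraries, below the lowest of them, and the other 3 on libraries lay close together. The difference was -0.28 ± 0.05 (SE, limma adjusted p = 0.0165), a change of -17.6% (95% interval -23.7% to -11.0%). Group means were 11.726 ± 0.093 in on (SD, n = 4) and 12.005 ± 0.080 in off (SD, n = 3). Olig1 passed in 3 of the 7 fits that leave out 1 library, when on replicate 1, on replicate 2 or off replicate 1 was dropped, and its adjusted p in the other 4 lay between 0.0634 and 0.0960.

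Olig2, the basic helix-loop-helix factor that specifies the lineage, lies at chr16:91225457-91228677 on the same strand, 41094 bases before Olig1. Its rlog values were 9.90, 9.93, 9.76 and 9.67 in on replicates 1 to 4 and 9.999, 10.09 and 10.07 in off. On replicate 4 was the lowest library, and on replicate 2 was the on library closest to off. The difference was -0.24 ± 0.06 (SE, limma adjusted p = 0.0493), a change of -15.2% (95% interval -22.3% to -7.41%), close to the threshold. Means were 9.81 ± 0.12 in on (SD, n = 4) and 10.05 ± 0.05 in off (SD, n = 3). With other scalings it missed the threshold, at an adjusted p of 0.0565 with median centring and 0.0602 with quantile normalization (limma). Olig2 passed in 2 of the 7 fits without 1 library, those without on replicate 1 or on replicate 2. Without on replicate 1, 16.3% of all tested genes were called. In the other fits without 1 library its limma adjusted p lay between 0.0690 and 0.222.

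Differences over the whole table ran with transcript length and GC content, and both Olig genes have short transcripts rich in G and C. The longest annotated transcript of Olig1 has 2162 bases with 61.1% G and C, and that of Olig2 has 2530 bases with 58.5%, against medians of 3158 bases and 49.5% over all tested genes. Of 5 equal classes by GC content, the most GC-rich held 3566 tested genes, of which 5.3% were called lower, and of its 1881 genes in the 2 shortest of 5 length classes, whose median difference was -0.07, 8.13% were. Nkx2-2 lies in the same GC and length classes as the Olig genes, and Sox10 and Cspg4, with 61.8% and 59.2% G and C, lie in the same GC class. Spearman's rho of a library's deviations with transcript length, across genes that are not independent replicates, was 0.274 to 0.291 in on replicates 2 to 4 and -0.0592 in on replicate 1, against -0.316 to -0.233 in off. With a smooth trend on both properties removed from each library, Olig1 had a difference of -0.15 ± 0.04 (SE, limma adjusted p = 0.0833) and Olig2 one of -0.18 ± 0.06 (SE, limma adjusted p = 0.160). Neither was then called, beside 0.587% of all tested genes. With on replicate 1 also left out, Olig1 was called at -0.18 ± 0.03 (SE, limma adjusted p = 0.00804) and Olig2 was not at -0.19 ± 0.06 (SE, limma adjusted p = 0.0583), where 9.99% of all tested genes were.

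**Figure D2:**
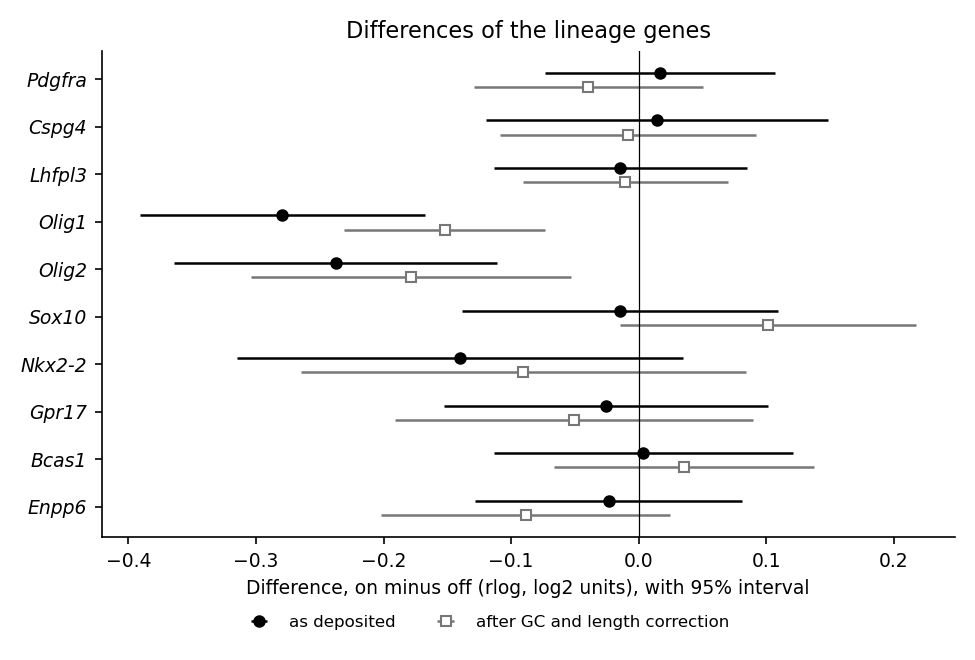
Difference of each lineage gene, on minus off, in rlog (log2) units with its 95% interval, from the deposited values (filled circles) and after the GC and length correction (open squares). Olig1 shifts to -0.15 and Olig2 to -0.18 with the correction, and Sox10 shifts to 0.10.

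The promoters of Olig2 and of Pdgfra are printed as examples of a GC-rich and a less GC-rich promoter among the lineage genes. RefSeq promoter sequences on GRCm38.p6, from 250 bases before to 50 after a start, were found for 6 of the 10 genes: Pdgfra, Cspg4, Lhfpl3, Olig2, Nkx2-2 and Enpp6. Capitals mark E-boxes (CANNTG, the general site of basic helix-loop-helix factors) and GC boxes (GGGCGG), searched on both strands, so that a GC box on the other strand reads CCGCCC.
Olig2, chr16:91225300-91225599, plus strand: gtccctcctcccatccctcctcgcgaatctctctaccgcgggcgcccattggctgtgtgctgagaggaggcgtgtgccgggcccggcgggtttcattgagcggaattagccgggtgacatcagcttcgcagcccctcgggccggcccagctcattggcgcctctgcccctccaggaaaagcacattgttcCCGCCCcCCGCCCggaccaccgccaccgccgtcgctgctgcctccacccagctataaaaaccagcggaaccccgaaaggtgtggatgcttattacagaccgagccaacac
Pdgfra, chr5:75152001-75152300, plus strand: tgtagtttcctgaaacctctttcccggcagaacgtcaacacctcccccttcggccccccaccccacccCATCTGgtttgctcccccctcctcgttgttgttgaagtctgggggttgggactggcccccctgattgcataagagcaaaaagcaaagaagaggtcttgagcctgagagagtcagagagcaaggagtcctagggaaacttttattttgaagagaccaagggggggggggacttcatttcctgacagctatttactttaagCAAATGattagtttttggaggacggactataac
The Olig2 promoter has 65.0% G and C, 25 CG dinucleotides, 2 GC boxes and 0 E-boxes. The Pdgfra promoter has 51.0% G and C, 5 CG dinucleotides, 2 E-boxes and 0 GC boxes. Of the 32851 promoters in that table, 72.3% hold an E-box and 35.7% a GC box. Among the uncalled genes, the Lhfpl3 promoter had 66.0% G and C with 2 E-boxes and 1 GC box, and that of Cspg4 had 60.0% with 0 E-boxes and 2 GC boxes, the same box counts as Olig2. The Nkx2-2 promoter held 3 E-boxes and 1 GC box, and that of Enpp6 held neither.

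The genes around the Olig pair were read from the same fit. Of the 22 other tested genes that reach within 500 kb of Olig2 or Olig1, 0 were called by limma and 5 had an unadjusted p under 0.05, a share near the 20.7% of all tested genes at that level. Their differences lay between -0.09 and 0.18 with a median of 0.02. Tmem50b had the lowest, at -0.09 ± 0.03 (SE, limma adjusted p = 0.151). The highest were those of Paxbp1 at 0.18 ± 0.07 (SE, limma adjusted p = 0.151) and of Son, which encodes a splicing cofactor, at 0.17 ± 0.04 (SE, limma adjusted p = 0.0615). On libraries lay entirely below off libraries in 1 of the 22 and entirely above in 4, against 8.09% below and 7.13% above over all tested genes. The only other annotated gene that overlaps Olig1, Gm15966 on the opposite strand, was below the filter, at -2.06 in both groups, and none overlaps Olig2.

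**Figure D3:**
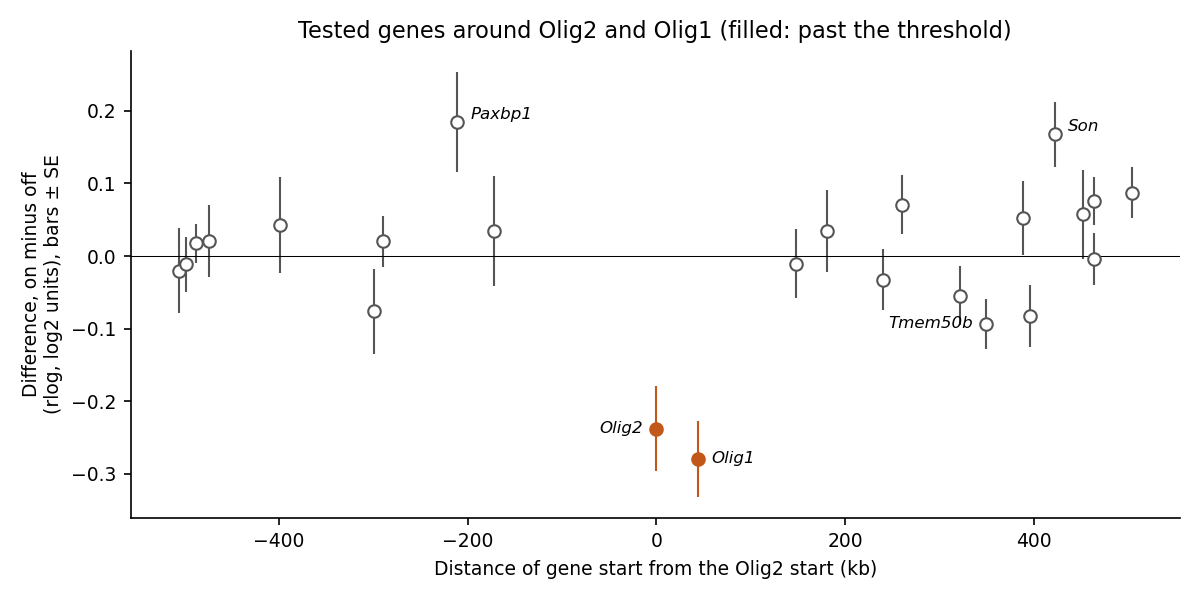
Difference, on minus off, of the tested genes around the Olig pair, in rlog (log2) units with SE bars, against the distance of each gene's start from the Olig2 start in kb. Olig2 and Olig1 (filled) lie at -0.24 and -0.28, and the 22 others (open) lie between -0.09 and 0.18.

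The other lineage factors did not pass. Sox10 encodes the HMG-box factor that acts throughout the lineage and lies at chr15:79154908-79165240 on the minus strand. Its rlog values were 10.98, 10.78, 10.85 and 10.69 in on and 10.84, 10.80 and 10.89 in off. The on libraries held both the highest and the lowest value, with on replicate 1 at the top and on replicate 4 at the bottom. Its difference was -0.01 ± 0.06 (SE, limma adjusted p = 0.914; 95% interval -0.14 to 0.11), and 0.10 ± 0.05 (SE, limma adjusted p = 0.365) after the GC and length correction.

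Nkx2-2 encodes a homeodomain factor of the step from precursor to myelinating cell and lies at chr2:147177546-147194243 on the minus strand. It had the lowest values of the 10 genes, 7.78, 7.72, 7.50 and 7.46 in on replicates 1 to 4 and 7.74, 7.65 and 7.87 in off. On replicates 3 and 4 lay below the off libraries, and on replicates 1 and 2 lay among them. The difference of -0.14 ± 0.08 (SE, limma adjusted p = 0.353) had a wide 95% interval, from -0.31 to 0.03. Its antisense partner Nkx2-2os, on the opposite strand, had a mean of 5.44 in on and 5.36 in off. No source used here states whether counting kept the strand, so reads of the pair may not be fully separated.

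Set against other genes of the list within the same library, the Olig pair was lower in on in most pairings. These values describe genes singled out after their differences were seen, so they carry no test. Olig1 minus Sox10, a difference of rlog values within a library, was 0.88, 0.93, 0.81 and 0.98 in on and 1.08, 1.21 and 1.19 in off, without overlap. Olig2 minus Sox10 was -1.09, -0.86, -1.09 and -1.02 in on and -0.84, -0.71 and -0.82 in off, where on replicate 2 and off replicate 1 almost met. Against the 8 genes outside the pair, on libraries lay below off libraries in 7 pairings of Olig1 and in 5 of Olig2. All pairings of a gene reuse the same values of that gene, and the 8 others did not pass. These counts therefore largely repeat the differences of Olig1 and Olig2 themselves. Olig1 minus Nkx2-2 overlapped between the groups, as did Olig2 minus Nkx2-2. Within the pair, Olig1 minus Olig2 lay between 1.783 and 1.999 in on and between 1.917 and 2.018 in off, so the groups overlapped.

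The precursor markers differed little between on and off. Pdgfra, the receptor for platelet-derived growth factor (chr5:75152292-75198215, plus strand), had rlog values of 11.16, 11.00, 11.12 and 11.10 in on and 11.10, 11.05 and 11.09 in off. All 3 off values lay within the range of the on values. The difference was 0.02 ± 0.04 (SE, limma adjusted p = 0.858), and its 95% interval, -0.07 to 0.11, corresponds to changes of -4.96% to 7.71%. Pdgfra is also expressed by fibroblasts of the meninges.

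Cspg4 encodes the proteoglycan NG2, by which precursors are often stained (chr9:56865033-56899870, plus strand). It had values of 9.12, 8.97, 9.03 and 9.03 in on and 8.92, 8.98 and 9.18 in off, with the widest spread in off, where replicate 3 was the highest and replicate 1 the lowest of all libraries. The difference was 0.01 ± 0.06 (SE, limma adjusted p = 0.925; 95% interval -0.12 to 0.15). Pericytes also make NG2. Lhfpl3, a precursor marker from cell profiling (chr5:22746059-23275597, plus strand), had values of 10.90, 10.95, 10.78 and 10.93 in on and 10.96, 10.90 and 10.85 in off. On replicate 3 was the lowest library and off replicate 1 the highest. Its difference was -0.01 ± 0.05 (SE, limma adjusted p = 0.892; 95% interval -0.11 to 0.08).

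Genes of newly formed oligodendrocytes also gave no call. Gpr17 encodes a receptor that holds cells at the step before myelination (chr18:31942997-31949636, minus strand). Its values were 10.29, 10.34, 10.31 and 10.09 in on and 10.34, 10.32 and 10.19 in off. On replicate 4 was the lowest and off replicate 3 the next, with the other 5 libraries close together. The difference was -0.03 ± 0.06 (SE, limma adjusted p = 0.845; 95% interval -0.15 to 0.10). Gpr17 lies inside Lims2, a gene on the opposite strand with a mean of 8.32 in on and 8.24 in off.

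Bcas1, a myelin-associated gene that is high in cells that are starting to myelinate (chr2:170346991-170427845, minus strand), had values of 13.48, 13.35, 13.38 and 13.26 in on and 13.25, 13.45 and 13.39 in off. Its highest library was on replicate 1, and on replicate 4 and off replicate 1 were the lowest. The difference was 0.00 ± 0.05 (SE, limma adjusted p = 0.980; 95% interval -0.11 to 0.12). Enpp6, a choline phosphodiesterase gene that marks the newest oligodendrocytes (chr8:46986887-47096762, plus strand), had values of 9.23, 9.18, 9.17 and 9.23 in on and 9.15, 9.23 and 9.30 in off. Both the lowest and the highest library were off libraries. The difference was -0.02 ± 0.05 (SE, limma adjusted p = 0.825; 95% interval -0.13 to 0.08).

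Levels between genes were set per length, as the mean rlog value over the 7 libraries minus the log2 of the longest transcript's length in kb. On this scale Bcas1 was highest at 11.80, followed by Olig1 at 10.73, Sox10 at 9.36, Lhfpl3 at 9.26, Olig2 at 8.58, Pdgfra at 8.32, Gpr17 at 7.89, Enpp6 at 6.90, Nkx2-2 at 6.59 and Cspg4 at 6.01. The part of mature oligodendrocytes in the high Bcas1 value was not tested. Sox10 and Lhfpl3 overlapped across libraries, as did Olig2 and Pdgfra, so their order is within the spread. Group means on this scale were 10.61 in on and 10.89 in off for Olig1, and 8.47 in on and 8.71 in off for Olig2.

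Across all 7 libraries the 10 genes did not follow the groups as a set. Their differences were negative in 7 of the 10, and in all 10 without on replicate 1. On replicate 1 lay above the gene's own mean in 9 of the 10 genes, all but Olig2, and was the highest library in 3. On replicate 4 lay below it in 7 and was the lowest library in 4. The mean deviation over the 10 genes was 0.06, -0.02, -0.06 and -0.10 in on replicates 1 to 4 and 0.01, 0.03 and 0.08 in off replicates 1 to 3. Mature myelin genes moved alongside, with mean deviations of 0.06, -0.02, -0.05 and -0.10 in on and 0.00, 0.02 and 0.09 in off. This was not particular to myelin. Astrocyte markers had 0.07, -0.03, -0.01 and -0.06 in on, and microglia markers 0.07, -0.08, -0.01 and -0.12. Pericyte and mural cell markers went the other way in on, at -0.10, 0.05, 0.12 and 0.08. The part of myelin content in the lineage genes' values was not tested.

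Wider lists of lineage genes, drawn up with earlier results of these data known, are described by counts only. Of 28 other precursor markers, 1 rose and 0 fell, with a median of -0.02, where 0.816% of all tested genes were called higher and 1.79% lower. By limma 6 of the 28 had an unadjusted p under 0.05, 4 higher and 2 lower in on, against 20.7% of all tested genes. The called one was Megf11, which encodes a membrane protein with EGF-like repeats, at 10.96, 11.17, 11.13 and 11.04 in on and 10.80, 10.83 and 10.83 in off. All 4 on libraries lay above the off libraries, and the difference was 0.25 ± 0.05 (SE, limma adjusted p = 0.0182). It was also called after the GC and length correction, at 0.21 ± 0.04 (SE, limma adjusted p = 0.0468). Megf11 passed in 3 of the 7 fits without 1 library. Among these was the fit without on replicate 1, which called 16.3% of all tested genes.

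Of 22 other tested transcription factors of the lineage, 1 rose and 1 fell, with a median of -0.01, against the same shares of 0.816% higher and 1.79% lower over all tested genes. By limma 8 of the 22 had an unadjusted p under 0.05, 2 higher and 6 lower in on, against 20.7% of all tested genes. Hes5, a Notch target that restrains differentiation, fell by 0.33 ± 0.07 (SE, limma adjusted p = 0.0348), at 7.74, 7.57, 7.61 and 7.57 in on and 7.77, 8.01 and 8.09 in off. On replicate 1 and off replicate 1 lay close together, and without either the gene was called. The fit without on replicate 1 called 16.3% of all tested genes. Hes5 missed the threshold in the 5 other fits without 1 library and after the GC and length correction (-0.17 ± 0.06, SE, limma adjusted p = 0.164). Zbtb20 rose by 0.33 ± 0.05 (SE, limma adjusted p = 0.00572), and by 0.11 ± 0.03 after that correction, where it was not called (SE, limma adjusted p = 0.118). It passed in 7 of 7 fits without 1 library. After the correction it was called once on replicate 1 was also left out (limma adjusted p = 0.0428). That last fit called 9.99% of all tested genes. Myrf, the factor that drives myelin genes with Sox10, had a difference of 0.05 ± 0.05 (SE, limma adjusted p = 0.642).

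Other genes of newly formed oligodendrocytes gave 0 calls by limma among 26 tested, with 6 at an unadjusted p under 0.05 (4 higher and 2 lower in on, against 20.7% of all tested genes in either direction) and a median of 0.03. The smallest p-values were those of the calcium channel gene Itpr2 at 0.13 ± 0.04 (SE, limma adjusted p = 0.106) and of Nfasc, which encodes a protein of the node of Ranvier, at 0.13 ± 0.05 (SE, limma adjusted p = 0.133). Among mature myelin genes 1 of 28 fell and 0 rose, where 1.79% of all tested genes were called lower. Of the 28 differences 22 were negative, with a median of -0.06 against 0.00 over all tested genes. By limma 7 of the 28 had an unadjusted p under 0.05, 1 higher and 6 lower in on, against the same 20.7%. After the GC and length correction the list median was -0.03 and 0 of its genes were called. Mbp, the gene of myelin basic protein, did not pass, with a difference of -0.05 ± 0.07 (SE, limma adjusted p = 0.698).

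**Figure D4:**
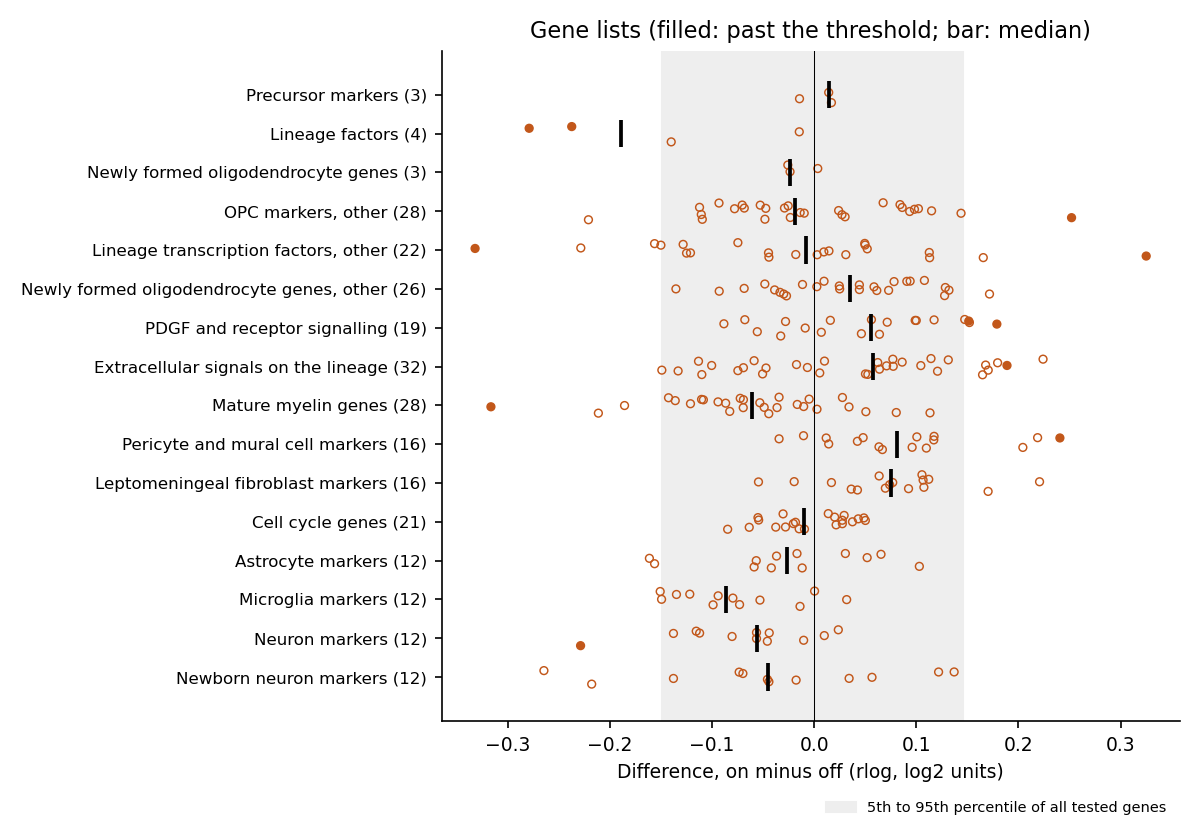
Difference, on minus off, of each tested gene in rlog (log2) units, by list with the number of tested genes in brackets; filled points are called genes, bars are list medians, and the grey band spans the 5th to 95th percentile of all tested genes (-0.15 to 0.15). The 2 called lineage factors, Olig1 and Olig2, lie left of the band, and list medians other than that of the 4 lineage factors (-0.19) lie between -0.09 and 0.08.

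Signals that reach precursors were read in the same way. Of 19 genes of platelet-derived growth factor and its receptor signalling, 2 rose and 0 fell, with a median of 0.06, where 0.816% of all tested genes were called higher. They were Pik3r1, a regulatory subunit of PI3 kinase, at 0.15 ± 0.04 (SE, limma adjusted p = 0.0435), and Cbl, a ubiquitin ligase of activated receptors, at 0.18 ± 0.04 (SE, limma adjusted p = 0.0443). The ligand gene Pdgfa had a difference of -0.07 ± 0.05 (SE, limma adjusted p = 0.451). By limma 6 of the 19 genes had an unadjusted p under 0.05, 5 higher and 1 lower in on, against 20.7% of all tested genes. Of 32 genes of other signals, 1 rose, Igf1r, the receptor for insulin-like growth factor 1, at 0.19 ± 0.04 (SE, limma adjusted p = 0.0365), against the same 0.816%. That list had a median of 0.06 as deposited and of 0.00 with the GC and length trend removed. By limma 12 of the 32 had an unadjusted p under 0.05, 10 higher and 2 lower in on, against the same 20.7%. Pik3r1, Cbl and Igf1r were called in 1 of the 7 fits without 1 library, that without on replicate 1. That fit called 16.3% of all tested genes. None of these 3 was called after the GC and length correction, with differences of 0.08 for Pik3r1, 0.06 for Cbl and 0.08 for Igf1r. Of 21 tested cell cycle genes 0 were called by limma, with 0 at an unadjusted p under 0.05 and a median of -0.01. Over all tested genes 2.6% were called and 20.7% had an unadjusted p under 0.05. This list had low mean rlog values, 5.83 to 5.88 in on and 5.83 to 5.90 in off, where changes are shrunk.

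Other cells that use the marker genes were checked beside them. Of 16 pericyte and mural cell markers, a list that holds Cspg4, 14 were positive with a median of 0.08. The 1 call among them was Anpep at 0.24 ± 0.06 (SE, limma adjusted p = 0.0484), where 0.816% of all tested genes were called higher. Anpep was also the only 1 of the 16 with an unadjusted p under 0.05 by limma, against 20.7% of all tested genes. It was called in 1 of the 7 fits without 1 library, that without on replicate 1, which called 16.3% of all tested genes. Anpep was not called after the GC and length correction (0.23 ± 0.06, SE, limma adjusted p = 0.0911). Pdgfrb, the pericyte receptor, had 0.12 ± 0.06 (SE, limma adjusted p = 0.306). Of 16 markers of meningeal fibroblasts, a list that holds Pdgfra, 14 were positive with a median of 0.08, and 0 were called by limma with 5 at an unadjusted p under 0.05, all higher in on, against 20.7% of all tested genes in either direction. The smallest p-values there were those of the transporter genes Slc6a20a at 0.17 ± 0.05 and Slc6a13 at 0.22 ± 0.08 (SE, limma adjusted p = 0.0924 and 0.136), and the collagen gene Col1a2 had 0.11 ± 0.06 (SE, limma adjusted p = 0.298). Mean rlog values of this list were 8.99 to 9.09 in on and 8.91 to 8.97 in off, and those of the mural list were 7.88 to 8.10 in on and 7.84 to 8.02 in off. No gene of either list was at 0, and the part of these cells in the values of Pdgfra and Cspg4 was not tested.

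Olig2 is also used outside the lineage, in some astrocytes. Sox9 is counted both in the astrocyte list and among the other transcription factors of the lineage. Over all tested genes 20.7% had an unadjusted p under 0.05, which the following counts at that level are set against. Of 12 astrocyte markers 0 were called by limma, with 2 at that level, Mlc1 at -0.16 ± 0.05 and Sox9 at -0.16 ± 0.05 (SE, limma adjusted p = 0.0838 and 0.0890). Gfap, the astrocyte filament gene, had -0.04 ± 0.08 (SE, limma adjusted p = 0.810). Of 12 microglia markers 0 were called by limma with 3 at an unadjusted p under 0.05, all lower in on, among them C1qb, a complement gene, at -0.15 ± 0.07 (SE, limma adjusted p = 0.230), and Cx3cr1 had -0.08 ± 0.05 (SE, limma adjusted p = 0.434). Of 12 newborn neuron markers 0 were called by limma with 4 at an unadjusted p under 0.05, 1 higher and 3 lower in on, among them the homeobox genes Dlx2 at -0.22 ± 0.07 and Dlx1 at -0.26 ± 0.08 (SE, limma adjusted p = 0.0903 and 0.0956). Of 12 neuron markers 1 was called, lower in on, where 1.79% of all tested genes were called lower. By limma 4 of the 12 had an unadjusted p under 0.05, all lower in on. The called gene, that of the vesicular GABA transporter Slc32a1, fell by 0.23 ± 0.05 (SE, limma adjusted p = 0.0282). It was called in 2 of the 7 fits without 1 library, those without on replicate 1 or off replicate 1. Without on replicate 1, 16.3% of all tested genes were called. Slc32a1 was not called after the GC and length correction (-0.11 ± 0.03, SE, limma adjusted p = 0.119). The synaptic gene Snap25 had -0.06 ± 0.06 (SE, limma adjusted p = 0.604).

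**Figure D5:**
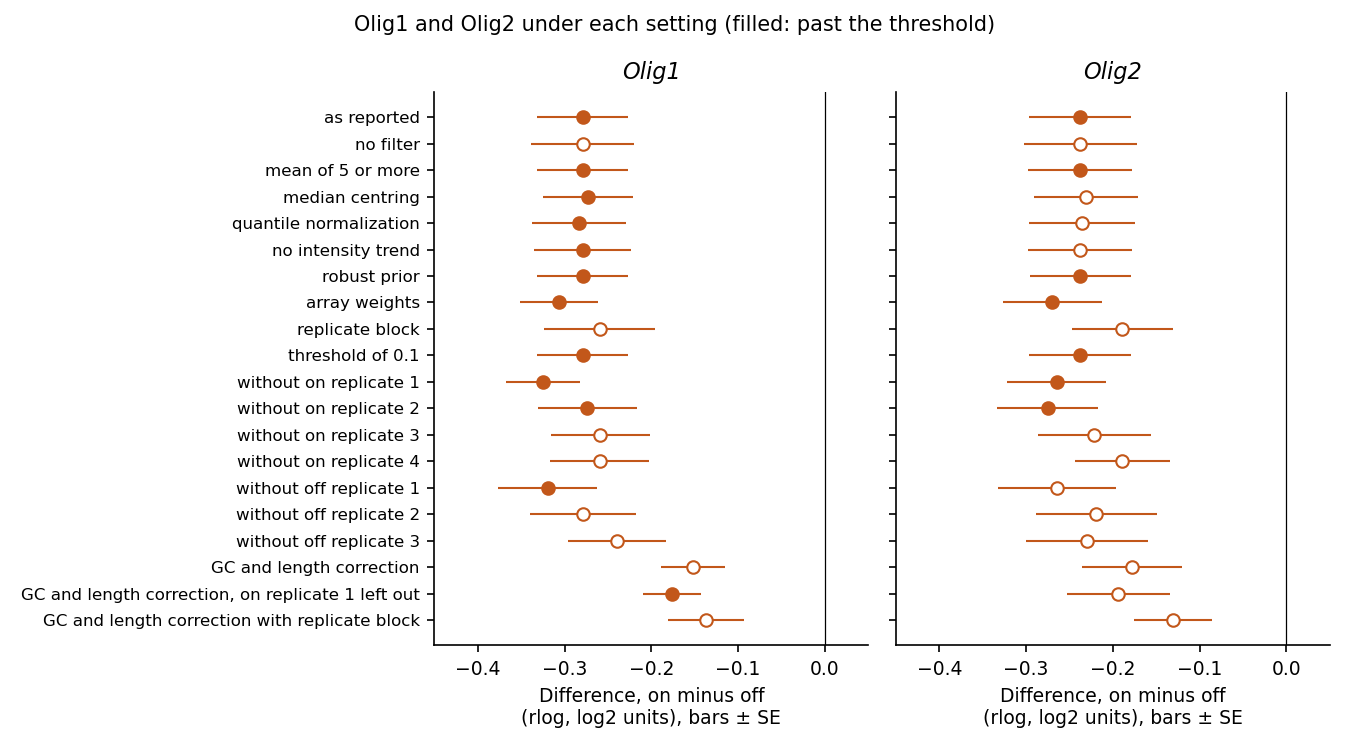
Differences of Olig1 and Olig2, on minus off, in rlog (log2) units with SE bars under each processing setting; filled points are past the threshold of that setting. The differences without 1 library lie between -0.32 and -0.24 for Olig1 and between -0.28 and -0.19 for Olig2. After the GC and length correction they are -0.15 for Olig1 and -0.18 for Olig2.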

How the data were processed

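Brain RNA of 7 libraries, 4 on and 3 off, was prepared with the Illumina TruSeq Stranded mRNA kit, per the labels. The authors deposited rlog values, which are on a log2 scale; depth per library is unknown. Tools in the submitters' processing notes are DESeq2 1.16.1, STAR 2.5.2, cutadapt 1.9.1, Subread 1.5.3 and BWA 0.7.14-r1136, with the build GRCm38 and no role for each. No source used here gives the annotation release or strand setting. Of 48526 genes, 13834 had 0 throughout, and 48058 identifiers (99.0%) matched a symbol. The fit used limma 3.58.1 (R 4.3.3) with a group term and an intensity trend; tests were two-sided and p-values were adjusted over 17896 genes by the Benjamini-Hochberg method. The GC and length correction subtracted a smooth trend per library in each of 3 classes of mean value (mgcv 1.9.3), using the longest GENCODE M21 transcript, known for 17831 tested genes (99.6%). The methods were tested on simulated data with noise drawn independently for each gene. The only trend shared across genes was one with length, added to on to test the correction. Such data cannot show how many calls are false where genes vary together, as in these libraries. No pair of libraries held identical values. Members, lists and tests were chosen with earlier results of these data known. The rule for named genes took the 10 lineage genes, the called genes of each list (up to 6, or the 2 with the smallest p where none was called), and further markers: Mbp, Gfap, Cx3cr1, Snap25, Pdgfrb, Col1a2, Pdgfa and Myrf. A few genes within this rule are not reported here. The genes around the Olig pair were taken by position, and Paxbp1, Son and Tmem50b were named for their values. Alternatives covered filters, scaling, variance models, the threshold, the replicate block, the correction and each library left out.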

Additional observations from a re-analysis of the deposited data

How the results depend on the processing

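The count of called genes, 466, was 7 with no filter, 237 without the intensity trend, 2215 with array weights, 1182 at a threshold of 0.1, 105 after the GC and length correction, 1787 after it without on replicate 1, and 2 after it with the replicate block. Without 1 library it was 43 to 2917, highest without on replicate 1, 311 without off replicate 1 and 43 to 175 without any of the others. The count of called lineage genes, 2, was 0 with no filter, 1 with median centring, 1 with quantile normalization, 1 without the intensity trend, 0 after the correction, 1 after it without on replicate 1, 0 after it with the replicate block, and 0 to 2 without 1 library. Fits without 1 library also had fewer samples left, and the cause of these changes was not tested. Libraries with the same replicate number showed no sign of pairing, though so few libraries cannot exclude it. Correlations of same-numbered on and off deviations were -0.228, -0.1004 and 0.0176, and 0 of 6 libraries correlated best with their own number. With the replicate block 30 genes and 0 lineage genes were called. Olig1 and Olig2 were negative in each of the 14 alternatives that can change their difference, and the other 5 alter only the test. Their on and off libraries do not overlap, so leaving out 1 library, weighting libraries or the replicate block could not turn the sign. Differences near 0 changed sign. After the correction, alone, without on replicate 1 and with the block, Pdgfra had -0.040, -0.070 and -0.041, Cspg4 -0.0082, -0.035 and -0.0016, and Sox10 0.10, 0.064 and 0.14. With the block Sox10 had 0.031 and Gpr17 0.029, Gpr17 had 0.0067 with the block after the correction, and Bcas1 had -0.018 with array weights. Without 1 library, Pdgfra ranged from -0.0030 to 0.047, Cspg4 from -0.040 to 0.090, Lhfpl3 from -0.040 to 0.021, Sox10 from -0.067 to 0.031, Gpr17 from -0.074 to 0.029, Bcas1 from -0.052 to 0.044 and Enpp6 from -0.060 to 0.012. Unknown depth and shrunken values limit what can be read from genes with few reads.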
